A study of Mus musculus with 4 samples.

Results

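The genes described here are the neutrophil-recruiting chemokines Cxcl1, Cxcl2 and Cxcl5 and the colony-stimulating factors Csf1, Csf2 and Csf3. They were taken by name, with 1 probe each on the array, so 6 of 26793 gene names and 6 of 41146 probes are members. They were chosen by their levels on these same 4 arrays, with earlier results in view, so the counts and ranks below are descriptions and support nothing. RNA came from IMS/N cells, hepatic stellate cells of normal 129/Sv mouse liver that had been immortalized by SV40. The cultures were a control, one given PA (palmitic acid, a saturated fatty acid), one given ADSC medium, and one given both. ADSC medium had been taken from cultures of stem cells of inguinal fat of male C57BL/6J mice aged 8 to 10 weeks. Each condition was read on 1 one-colour array, so no test between conditions was possible and no p-value is given. All 4 cultures share the immortalized line, and the sources used here do not give the PA dose, the exposure time or the medium of the control.

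Cxcl1, Cxcl2 and Cxcl5 belong to the CXC chemokines that carry a glutamate-leucine-arginine motif and draw neutrophils out of the blood through the receptor CXCR2. Csf3 (G-CSF) drives the production of neutrophils, Csf2 (GM-CSF) that of granulocytes and macrophages, and Csf1 (M-CSF) keeps macrophages alive through the receptor CSF1R. Stromal cells, stellate cells among them, secrete these factors after signals from IL-1, TNF or IL-17, which act largely through NF-kB and through control of mRNA stability. In liver they are known for bringing neutrophils and monocytes into injured tissue.

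The probes lie in genes of 3 chromosomes, at the positions the array files give on mouse build mm9. Those of Cxcl5 (RefSeq NM_009141, chr5:91190205-91190264), Cxcl1 (NM_008176, chr5:91321845-91321904) and Cxcl2 (NM_009140, chr5:91334534-91334593) sit in 1 cluster on the plus strand. The Csf3 probe (NM_009971) is at chr11:98564614-98564673. Csf1 (NM_007778, chromosome 3, from 107544392 down to 107544333) and Csf2 (NM_009969, chromosome 11, from 54060799 down to 54060772) are read from the minus strand. Since the chemokines are related in sequence, the first 30 bases of their 60-base probes are shown so that they can be compared.
Cxcl1: agaagtgcagagagatagagtttagtatta
Cxcl2: atagttggaaggtgatacatttttaaacct
Cxcl5: agacatttgatgtcttcgtagtatggcata
Over the whole 60 bases, no pair of these 3 probes shared an unbroken run of more than 6 bases, and no pair of the 6 member probes one of more than 8. The probes are therefore distinct sequences. They were not compared with the transcripts of the other genes, so cross-hybridization was not tested.

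Promoters are shown for CXC genes of the cluster because Cxcl1 was bright while Cxcl2 and Cxcl3 were not detected. RefSeq's table for build GRCm38.p6 held the start regions of Cxcl1, Cxcl2, Csf1 and Csf2, and of Cxcl3, a close relative that is not a member. Cxcl5 and Csf3 were not in it. The 120 bases before the start of transcription are printed, with capitals for every match on either strand to a loose kappa B type motif, GGG and CC with 5 bases between them. The windows are chr5:90891125-90891244 for Cxcl1, chr5:90903779-90903898 for Cxcl2 and chr5:90785981-90786100 for Cxcl3, all on the plus strand.
Cxcl1: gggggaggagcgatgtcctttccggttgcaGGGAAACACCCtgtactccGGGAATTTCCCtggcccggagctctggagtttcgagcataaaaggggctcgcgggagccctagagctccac
Cxcl2: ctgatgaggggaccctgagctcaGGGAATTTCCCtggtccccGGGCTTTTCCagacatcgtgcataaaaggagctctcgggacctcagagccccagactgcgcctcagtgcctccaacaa
Cxcl3: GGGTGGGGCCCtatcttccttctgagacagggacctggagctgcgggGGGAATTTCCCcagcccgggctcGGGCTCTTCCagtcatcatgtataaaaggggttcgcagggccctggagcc
This motif is common, since 50.8% of 32851 start regions of 300 bases hold it. The longest run shared by the 3 genes within 250 bases before the start was GGGAATTTCCC, of 11 bases, found after the sequences were seen. It overlaps the kappa B type matches and begins at position -71 in Cxcl1, -97 in Cxcl2 and -73 in Cxcl3. It occurred on either strand in 0.0426% of all such stretches before a start, those of 14 genes, and not in those of Csf1 and Csf2. AP-1 type (TGANTCA, 7.81% of regions) and C/EBP type (TTGCNNAA, 10.8%) motifs were searched on both strands too. Neither occurred in the chemokine regions, and Csf2 held 1 C/EBP type match at -145. TATAAA (13.6%, both strands) occurred in Cxcl3 only, at -30. These matches describe letters and not binding.

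Levels are log2 intensities after quantile normalization of the 4 arrays, and differences are on the same log2 scale unless a fold is given. A probe counts as well above background by the scanner software's flag. Where it passed on only 1 of 2 arrays, the dimmer value was raised to the lowest level that passed on that array (2.43 for control, 2.07 for PA, 2.30 for ADSC medium, 2.11 for both together) and the difference is written "at least". Between 67.5% and 70.01% of probes passed on an array and no spot was saturated. The number of arrays limits the precision. The only error at hand is that of the spots, from 245 probes printed on 10 spots of each array, Csf1 and Csf2 among them. For 2 single spots of 1 such probe on 1 array, the difference had an SD of 0.067 where levels were 9 to 11, 0.12 where they were 5 to 7 and 0.49 where they were 2 to 3. It leaves out the variation between cultures. Whether a difference reflects more RNA per cell or other cells in the culture cannot be told apart.

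The marker genes of stellate cells matched the label in part. Vim, Col1a1, Col1a2, Col3a1, Acta2, Pdgfrb, Des and Nes were well above background on all 4 arrays, and Lrat, Reln, Hand2 and Gfap, markers of quiescent stellate cells or of the liver lineage, on none. Neutrophil markers were largely absent, with 8 of 10 below background on every array (S100a9, Elane, Camp, Ngp, Ltf, Retnlg, Csf3r and Cxcr2), and S100a8 and Mpo above it on all 4. Their summed linear level ranged from 167 to 220. For macrophages and other leukocytes, Ptprc, Adgre1, C1qa and Clec4f of 10 markers were on none of the arrays above background. The summed level of that list was 877 in control and 843 with PA but 1226 with ADSC medium and 1387 with both. Cd14 carried that difference (levels of 9.07, 8.80, 9.81 and 10.11 in that order), since the sum of the other 9 was 338, 397, 331 and 282, lower with the medium. Lyz2 differed by -0.37 with the medium alone and by -0.88 with PA present, and Itgam passed on the control and PA arrays alone. Cd68 differed by 0.47 and -0.12, and Csf1r by 0.23 and 0.51. Of 6 markers with a value, 4 were higher and 2 lower with the medium alone (median difference 0.12). With PA present, 3 were higher and 3 lower (-0.02). The median level of all 10, undetected ones included, was 3.40, 2.99, 3.05 and 2.70, so lower with the medium. Of 9 adipose markers, Adipoq, Plin1, Lep, Cfd and Dpp4 were on no array above background, while the summed level was 14261, 13597, 20440 and 21076 in the same order, led by Fabp4, Cd34 and Ly6a. The adipose sum and Cd14 are higher with the medium, as are Cxcl1 and Cxcl5 below, and their part in those results was not tested. Acta2 was lower with the medium (14.78, 14.58, 13.35 and 13.56) and Pdgfrb was low with PA alone (12.39, 11.46, 12.74 and 12.78). All 4 hepatocyte markers measured (Alb, Ttr, Apoa1 and Cyp2e1) were below background throughout. Of 5 endothelial markers Pecam1 and Cdh5 were below it, and Kdr, Tek and Stab2 were above it on all 4 arrays. Of 4 epithelial markers Epcam was below it, and Krt19, Krt7 and Sox9 were above it on all 4. Sox9 was 2.46-fold higher with both treatments than with PA (8.04, 7.65, 8.98 and 8.95), and Krt7 was 2.50-fold lower with both than in control (9.19, 8.64, 8.31 and 7.87). The part of these genes in the results below was not tested.

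Cxcl1 was lowest in control, higher with each single treatment and highest with both. Its level was 9.23 in control, 9.79 with PA, 10.33 with ADSC medium and 12.33 with both, well above background on all 4 arrays. Before normalization its spot read 554, 1039, 1196 and 5205, with scanner software errors of 55.4, 104, 120 and 520, or 0.14 on the log2 scale. The culture given both stands 1.998 above the next highest, and every step between cultures is larger than the SD of 0.067 for single spots. PA alone gave a level 1.48-fold higher than control (0.56, or 0.91 without scaling between arrays), ADSC medium alone 2.15-fold (1.104), and both together 8.58-fold (3.10).

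Cxcl5 gave the widest range of the members. It was at 6.67 in control, 5.98 with PA, 8.47 with ADSC medium and 10.42 with both. The spot read 95.0, 71.6, 326 and 1382 before normalization, with errors of 9.55, 7.22, 32.6 and 138. PA alone was therefore the lowest of the 4 cultures and PA with medium the highest, the reverse of what Cxcl1 showed for PA alone. Against control the level was 1.61-fold lower with PA (-0.69, or -0.43 with the normexp background and -0.41 without scaling), 3.48-fold higher with ADSC medium (1.80) and 13.4-fold higher with both (3.75).

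Cxcl2 was not well above background on any array. Its spot read 1.58, 3.49, 2.64 and 3.30 in control, PA, ADSC medium and both, with errors of 0.980 to 0.998 on that scale. The corresponding levels of 0.93, 1.65, 1.42 and 1.65 all lie under the lowest level that passed on their array. No fold is given, and no difference was measurable for this gene with its probe.

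**Figure D1:**
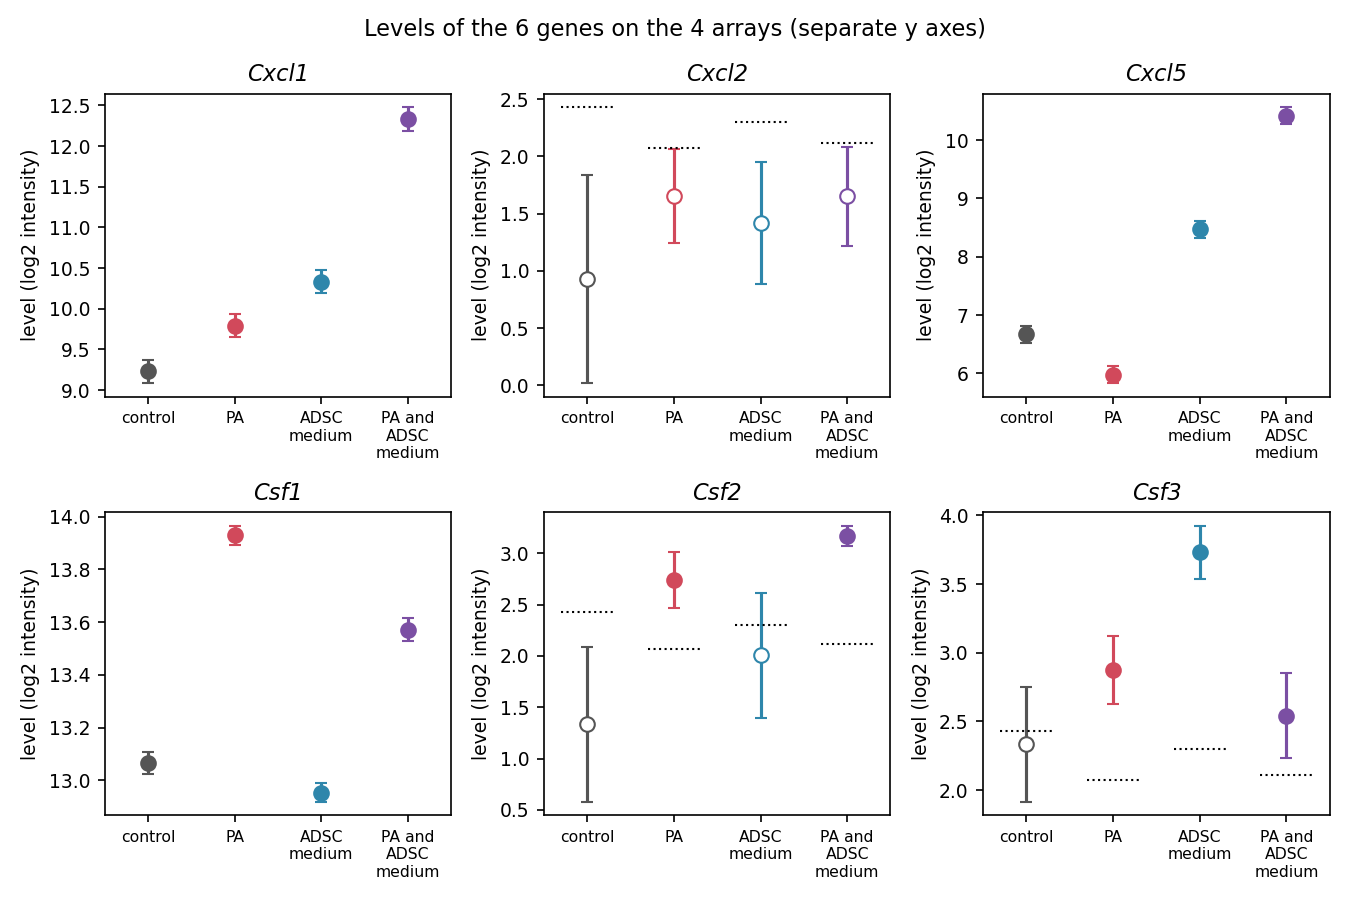
Level (log2 intensity, quantile-normalized) of each member on the 4 arrays, from left to right as the axis names them, with separate y axes. Bars are the SD over spots for Csf1 and Csf2 and the scanner software's error of the single spot for the others. Open circles are not well above background, and dotted lines, drawn for the dim genes, mark the lowest level that passed on that array. Cxcl1 and Cxcl5 are highest with both treatments, Csf1 with PA alone, and Cxcl2 stays under the dotted lines.

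Csf1 was bright in every culture and was printed on 10 spots. After flagged spots were left out, 8 or 9 spots an array remained. Their intensity ran from 7860 to 8439 in control (median 7923), from 17109 to 18305 with PA (median 17724), from 7234 to 7673 with ADSC medium (median 7385) and from 11817 to 12840 with both (median 11973). The kept spots of no pair of these arrays overlapped, before scaling and with 1 array per condition. How many of the 245 probes on 10 spots were as separate was not counted, so this describes spots and not cultures. After normalization the level was 13.06, 13.93, 12.95 and 13.57 in the same order, with an SD over spots of 0.034 to 0.045. PA was thus 1.82-fold above control (0.87) and the medium alone 1.08-fold below it (-0.11). With both, Csf1 was 1.42-fold above control (0.51). The array with PA was brighter as a whole, so without scaling between arrays the first difference was 1.13 ± 0.018 (SE over spots), beyond 2-fold, while the median of all genes was 0.29. Unlike the chemokines, this macrophage factor was 1.28-fold lower with both treatments than with PA alone (-0.36).

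Csf2 lay near the background, but its 10 spots allow it to be followed. In control they ran from 1.01 to 4.03 (median 2.28) and none was well above background. With PA they ran from 5.06 to 9.56 (median 7.62) and 9 of 10 passed. ADSC medium gave 1.63 to 7.37 (median 3.77) with 3 of 10 passing, and both together 8.36 to 10.4 (median 9.46) with all 10 passing. The spots of the PA culture and of the culture given both lay above every control spot, and those of the ADSC medium culture overlapped both control and PA. The spots of PA and of both treatments overlapped each other. As for Csf1, these are spots of 1 array per condition before scaling.

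Levels of Csf2 were 1.33, 2.74, 2.01 and 3.17 in control, PA, ADSC medium and both. Counted as bounds, PA was at least 1.24-fold above control and both together at least 1.67-fold. At their own values, which for control lie under the detection level, the differences were 1.40 and 1.83. Both together stood 1.82-fold or more above ADSC medium alone, at least 0.87 on the log2 scale. Against PA the same culture differed by 0.43, less than the 0.49 of single spots, although means of 10 spots differed by 0.36 ± 0.091 (SE) before scaling. With the normexp background, whose offset compresses dim signals, all 4 of these differences were between 0.03 and 0.14.

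Csf3 rests on a single dim spot. It read 4.54 in control, 8.07 with PA, 12.5 with ADSC medium and 6.12 with both, with errors of 1.31 to 1.67. Levels were 2.33, 2.88, 3.73 and 2.54, and the control value was not well above background. ADSC medium alone was the highest, at least 2.47-fold above control (1.30) and 2.28-fold above the culture given both, which differed from it by -1.19. PA differed from control by at least 0.45 and both together by at least 0.11, each under the spot SD of 0.49. With normexp the difference of 1.30 was 0.15 and that between both treatments and medium alone was -0.19.

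**Figure D2:**
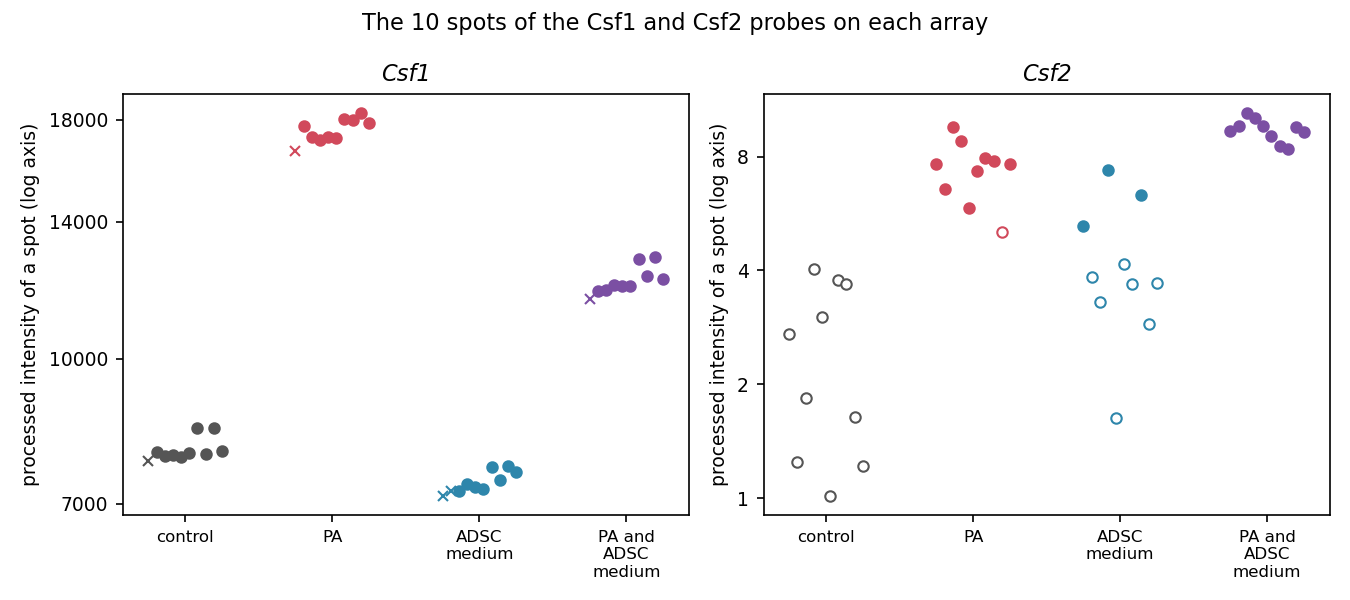
Processed intensity of every spot of the Csf1 and Csf2 probes (log axis) on the 4 arrays, before normalization between arrays. Filled circles are spots well above background, open circles are not, and crosses are spots left out by an outlier flag. The kept Csf1 spots of different arrays do not overlap, and Csf2 spots with PA lie above those of control.

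PA against control asks what the fatty acid alone did. A difference of 2-fold, in either direction, was not reached by any of the 5 members measured, where 1.09% of 18209 genes were that much higher and 0.599% that much lower. Their median was 0.45, beside -0.01 for all genes. That median is the Csf3 bound, which has a value because Csf3 passed with PA and not in control, so it describes 1 dim spot. At 1.5-fold, Csf1 passed as higher, as did 2.92% of genes, and Cxcl5 as lower, as did 3.27%. The direction among the members was mixed, with Csf1 and Cxcl1 higher and Cxcl5 lower. The bounds of Csf2 (0.31) and Csf3 (0.45) were higher too, but each under the single-spot SD for its level (0.56 and 0.49). For Csf2, a mean of 10 spots, the bound is only the distance to the detection level. Before scaling its spots differed by 1.76 ± 0.25 (SE over spots of 1 array each) and did not overlap, beside a median of 0.29 for all genes. The control spots were not well above background.

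The authors' deposited table of 1580 probes higher with PA than in control holds 5 of the 6 member probes, those of Cxcl1, Cxcl2, Csf1, Csf2 and Csf3, against 3.84% of all probes on the array. Cxcl5 is the member not listed. Of the 1580 probes in the authors' deposited table, 342 were well above background on neither array, as was that of Cxcl2, and 292 differed by 2-fold or more in the levels used here. Their differences ran from 0.08 to 4.85 with a median of 0.58. The other authors' deposited table, of 920 probes higher with PA than with PA and ADSC medium, holds none of the members. That table holds 2.23% of all probes on the array, so 0 of 6 is near that share. In it differences ran from 0.24 to 2.68 toward PA, and the PA and ADSC medium array lay below the PA array for Csf1 (-0.36) and Csf3 (-0.34), which are not listed.

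ADSC medium against control asks what the medium did without PA. Of 4 members with a value, Cxcl1, Cxcl5 and Csf3 were at least 2-fold higher, a call made for 0.533% of 18198 genes, and none was as much lower (0.121% of genes). The median of the 4 was 1.20, beside -0.01 for all genes. It rests in part on the Csf3 bound, which has a value because Csf3 passed with the medium and not in control. Cxcl2 and Csf2 passed on neither array and are left out, so this median is no measure of the members as a set. Cxcl5 ranked 8 and Cxcl1 76 among the genes ordered from the highest difference. At 1.5-fold the same 3 members passed upward and 0 downward, beside 2.31% and 1.29% of genes. Csf3 is a lower bound from a dim spot, and with the normexp background 2 members remained past 2-fold.

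With PA present, the difference between medium and no medium was wider for both measured chemokines than without PA. PA and ADSC medium against PA gave 5.81-fold more Cxcl1 (2.54) and 21.6-fold more Cxcl5 (4.44), and ranks of 24 and 3 among 18751 genes. Of 5 members these 2 were at least 2-fold higher, as were 1.75% of genes, and none was as much lower, as were 0.507%. At 1.5-fold the counts were again 2 and 0, beside 5.25% and 3.72% of genes. Normexp gave 3.64 for Cxcl5. The CSF genes stayed within 1.5-fold, at 0.43 for Csf2, -0.36 for Csf1 and -0.34 for Csf3. Median values were 0.43 for the members, which is the value of the dim Csf2, and -0.02 for all genes.

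**Figure D3:**
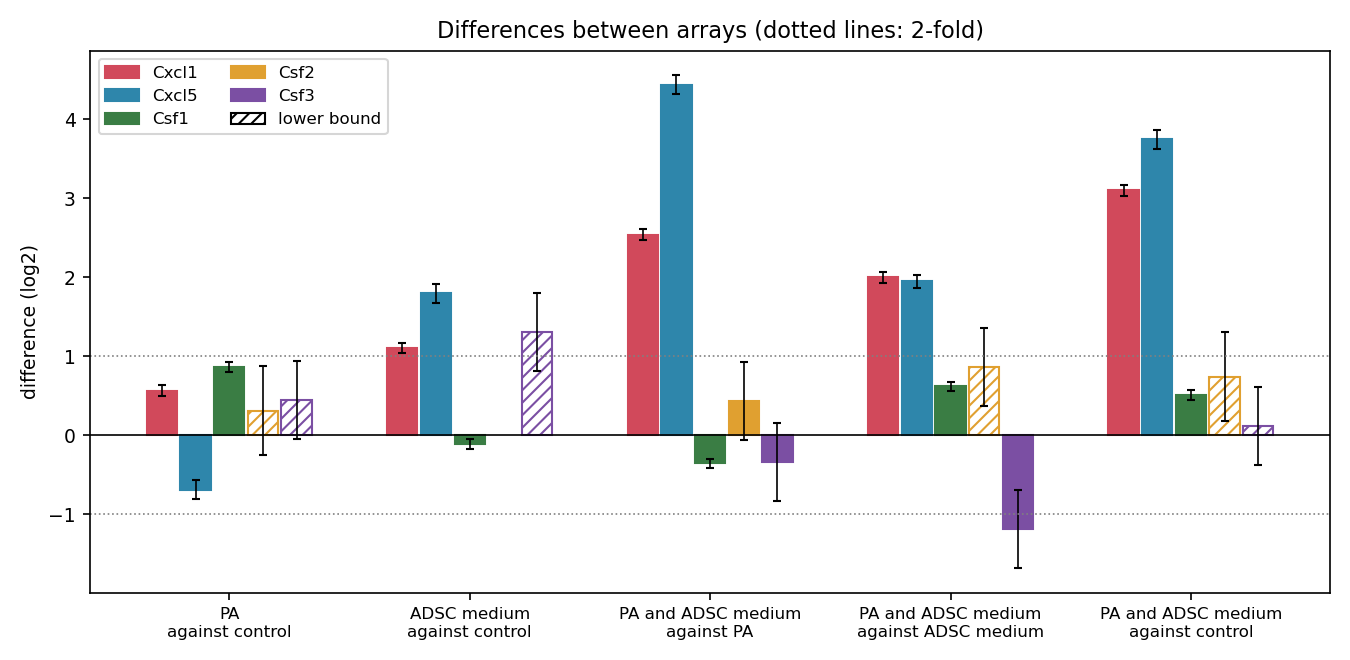
Difference (log2) of each member with a value in the 5 comparisons, the first named condition minus the second. Hatched bars are lower bounds, and error bars are the spot SD given above for that level, without the variation between cultures. Cxcl1 and Cxcl5 pass the dotted 2-fold lines in every comparison except PA against control.

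Read the other way, PA and ADSC medium against ADSC medium gives the effect of PA when the medium is there. Cxcl1 was 3.99-fold higher (1.998) and Cxcl5 3.85-fold (1.95), the 2 of 5 members past 2-fold upward, as were 1.26% of 18467 genes. Csf3 was the 1 member past it downward (0.477% of genes), on a single dim spot. With normexp its difference was -0.19 and it was not called. Csf1 was 1.54-fold higher (0.62). At 1.5-fold, Csf1 and Csf2 joined the chemokines, so that 4 members were higher and 1 lower, beside 3.54% and 3.14% of genes. Csf2 is a lower bound there, since it did not pass with ADSC medium alone, and was at 0.11 with normexp. Against control, the culture given both had Cxcl5 at rank 2 and Cxcl1 at rank 9 of 18252 genes. These 2 of 5 members were at least 2-fold higher there, as were 1.81% of genes, and 0 were as much lower (0.422%). At 1.5-fold 3 were higher, Csf2 being the third, and 0 lower, beside 4.68% and 3.67% of genes. Here too Csf2 is a bound, at 0.14 with normexp. The 5 comparisons share arrays, so they are not independent of one another.

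The effects of PA and medium did not add up for the chemokines. For Cxcl1 the single effects sum to 1.67 and both together gave 3.10, a surplus of 1.44. For Cxcl5 they sum to 1.11 and both gave 3.75, a surplus of 2.64. Csf1 fell short of its sum by a little (0.75 against 0.51, a difference of -0.25, or -0.42 without scaling). Of 17355 genes well above background on all 4 arrays, 0.893% had a surplus of 1 or more and 0.305% a shortfall as large, with a median of -0.01. Ordered by surplus, Cxcl5 stood at rank 2, Cxcl1 at rank 45 and Csf1 at rank 14452. With 1 array a condition this surplus has no error term beyond that of the spots.

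**Figure D4:**
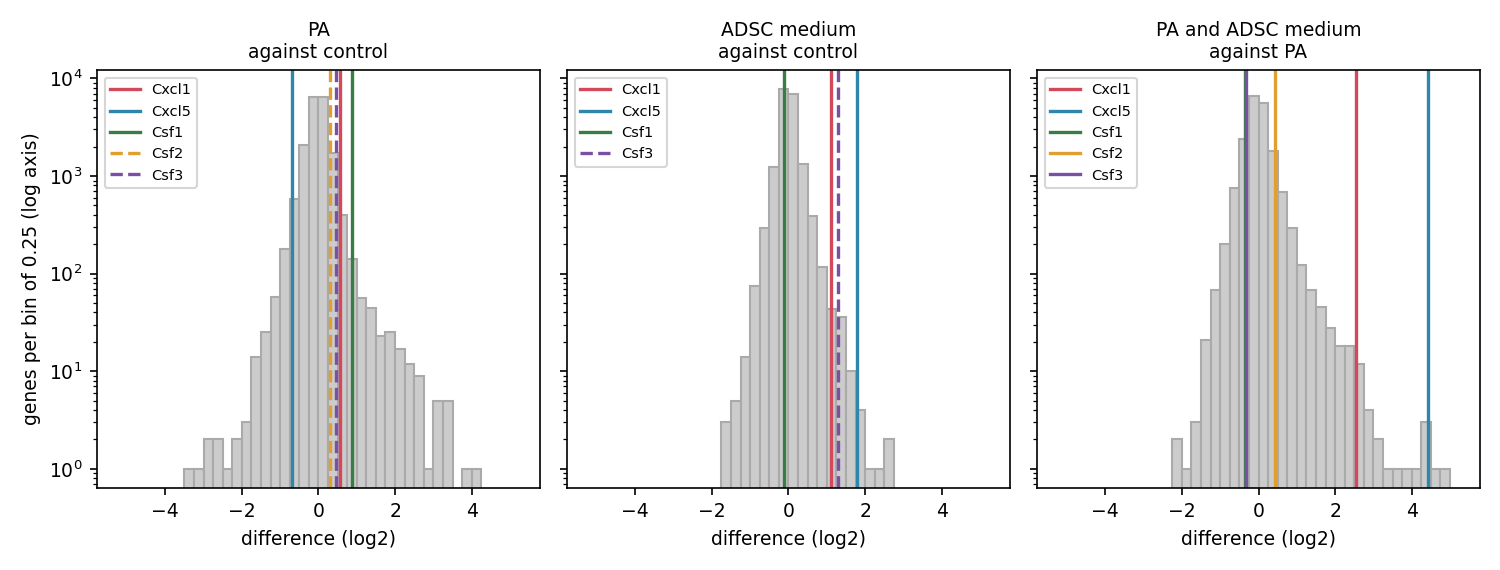
Number of genes (log axis) by difference (log2, bins of 0.25) in PA against control, ADSC medium against control, and PA and ADSC medium against PA. Vertical lines mark the members, dashed where the value is a lower bound. In the panel of PA and ADSC medium against PA, Csf1 and Csf3 coincide at -0.36 and -0.34, and Cxcl5 at 4.44 lies in the far tail.

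Neighbours in the chemokine cluster of chromosome 5 did not share these sizes. Of the other chemokine genes there, Cxcl3, Cxcl15 and Pf4 were on no array above background. Ppbp, which encodes a platelet chemokine, passed on the 2 arrays with ADSC medium, at 3.496 and 3.06 against 1.79 in control and 0.14 with PA, so at least 2.10-fold and 1.99-fold higher with the medium without and with PA. Ereg and Areg, which encode EGF receptor ligands beyond Cxcl2, were higher in PA and ADSC medium than in PA, Ereg by 2.92-fold (1.55) and Areg by 1.58-fold (0.66). Mthfd2l, which lies between Cxcl2 and Epgn, differed by -0.14, and Rassf6 on the other side by 0.89 at levels of 2.54 and 3.42. The CXCR3 ligands at a distance on the same chromosome behaved unlike Cxcl1 and Cxcl5. Cxcl10 was 6.61-fold higher with PA than in control and 1.15-fold with both against PA. Cxcl9 and Cxcl11 were at least 4.04-fold and 15.6-fold higher with PA, and -0.78 was the difference of Cxcl11 between both and PA.

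**Figure D5:**
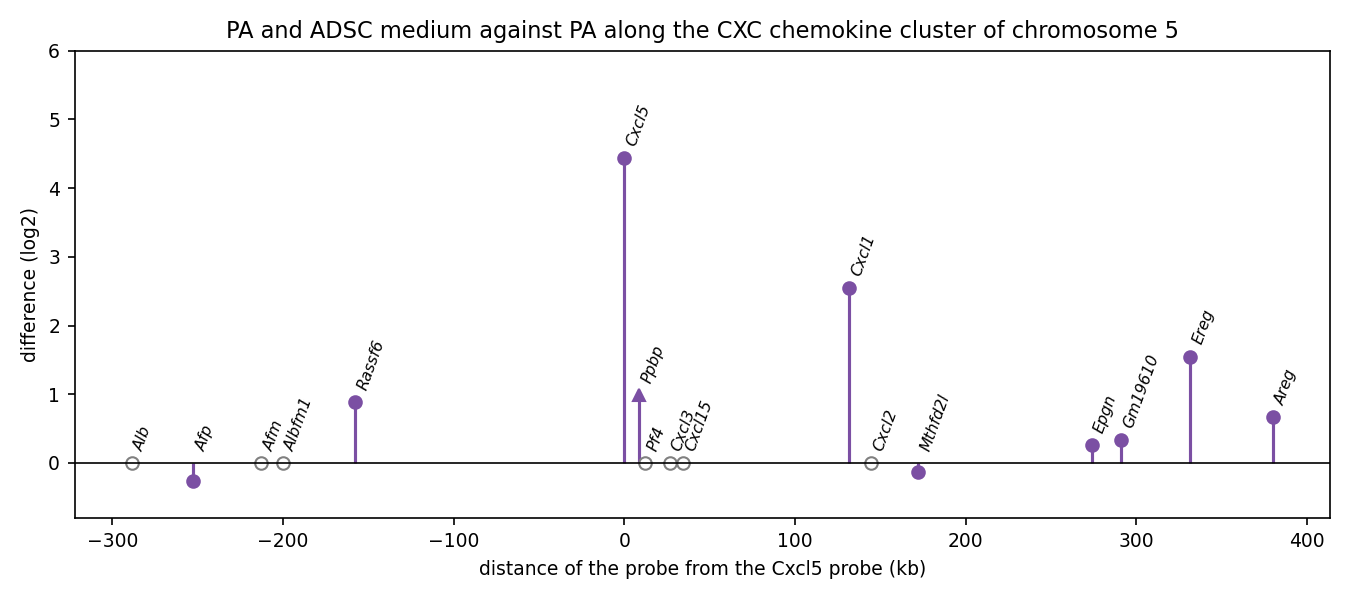
Difference (log2) between PA and ADSC medium and PA for genes with a probe within 300 kb of the Cxcl5 to Cxcl2 interval, by distance from the Cxcl5 probe (kb). Open circles at 0 are genes below background on both arrays, with no value, and the triangle (Ppbp) is a lower bound. Cxcl5, Cxcl1 and Ereg are the 3 past 1, as were 1.75% of all genes, and the first 2 are members.

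Among the 14 genes whose start region holds the 11-base run, 10 are on the array, and 4 of these, Cxcl2 and Cxcl3 included, were on no array above background. The other 6 were measured on all 4. In PA and ADSC medium against PA, Cxcl1 was at 2.54 and the remaining 5 between -0.16 and 0.15. In ADSC medium against control those 5 lay between -0.31 and 0.26, where Cxcl1 was at 1.104. In PA against control they lay between -0.12 and 0.46, close at the top (Hpn) to the 0.56 of Cxcl1. Both treatments against ADSC medium gave -0.28 to 0.67, again with Hpn highest, and against control -0.02 to 0.35.

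Receptors for the members were mostly dim in these cells. Cxcr1, Cxcr2 and Csf3r, which bind the chemokines and G-CSF, were on no array above background. Csf2ra, the GM-CSF binding subunit, was at 9.47 to 9.67 and Csf2rb, its signalling partner, at 6.90 to 7.11. A second beta subunit, Csf2rb2, passed only with ADSC medium (3.16, and 3.62 with both) and was at least 2.88-fold higher with both than with PA. Csf1r was low, at 3.97, 3.19, 4.20 and 3.70 in control, PA, ADSC medium and both, so 1.72-fold lower with PA. Ackr1, a scavenging chemokine receptor, was between 3.22 and 3.60. Il34, the other ligand of CSF1R, ran 7.85, 7.35, 8.45 and 8.21, lower with PA (-0.50) where Csf1 was higher. Of 5 receptors with a value, 1 (Csf2rb2, a bound) was at least 2-fold higher with both than with PA, as were 1.75% of all genes. None was as much lower, as were 0.507%.

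Among cytokines that induce these genes, Il1a, Il1b, Tnf and Il17a were on no array above background. Il17f ran 4.27, 4.42, 4.21 and 5.08, and Osm was between 2.82 and 3.43. Of 10 inducing cytokines and receptors with a value, none differed by 2-fold in any of the 5 comparisons. Over those comparisons, 0.533% to 1.81% of all genes were that much higher and 0.121% to 0.599% that much lower. Il1r1, the IL-1 receptor, was at 8.83, 8.76, 9.51 and 9.70, a difference of 0.68 with the medium alone and 0.93 with PA present. Il17ra (8.10 to 8.40) and Il17rc (13.9 to 14.2) differed by -0.29 to 0.02.

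Of 19 transcription and signalling factors, only Nfkbiz reached 2-fold, upward with both against PA (1.75% of all genes) and against control (1.81%). It encodes an atypical IkB protein that acts with NF-kB on part of its targets, and ran 8.05, 8.08, 8.53 and 9.32, so 2.35-fold higher with both than with PA. Relb was higher with PA (0.66), while Rela, Nfkb1 and Cebpb differed from control by 0.29 or less with PA alone. None of 8 mRNA stability factors and none of 7 feedback inhibitors differed by 2-fold in any comparison, beside the shares of genes given above. Under that cut, all 8 stability factors were higher with both than in control (median 0.39, beside -0.02 for all genes). With PA alone 5 were higher and 3 lower. Among the stability factors, Zc3h12a, which encodes an RNase that degrades inflammatory mRNAs, was at 6.15, 6.34, 6.57 and 6.88, and Zfp36 was between 10.3 and 10.6. Nfkbia, an NF-kB target and inhibitor, was 0.41 higher with both than with PA, Dusp1 was 0.81 higher, and Tnfaip3 was at -0.01. Of the 7 feedback inhibitors, 3 were higher and 4 lower in that comparison.

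Other targets of IL-1 and IL-17 divided into several patterns. In PA and ADSC medium against PA, 4 of the 10 measured passed 2-fold upward and 0 downward, beside 1.75% and 0.507% of all genes. Their median was 0.92, beside -0.02 for all genes. The 4 were Mmp3 (2.56), Ptgs2 (1.93), Il33 (1.79) and Mmp13 (1.68). Ptgs2, which encodes cyclooxygenase-2, ran 9.38, 9.48, 9.65 and 11.41, nearly flat until both were given. Il33 ran 4.20, 4.62, 5.18 and 6.40, upward in the same order as Cxcl1. Mmp3 ran 8.69, 5.73, 10.34 and 8.29, low with PA alone as Cxcl5 was, but not highest with both. In contrast Il6 (6.05, 8.31, 6.63 and 9.01) and Saa3 (4.18, 5.26, 3.33 and 5.06) stood high on both arrays with PA. In PA against control 3 of the 10 were at least 2-fold higher (Il6, Mmp13 and Saa3) and 1 as much lower (Mmp3), beside 1.09% and 0.599% of all genes, with medians of 0.49 and -0.01. In ADSC medium against control 1 was higher (Mmp3) and 0 lower (0.533% and 0.121% of all genes). Against ADSC medium, both treatments had 6 higher and 1 lower (1.26% and 0.477%), and against control 6 higher and 0 lower (1.81% and 0.422%), with medians of 1.19 in each.

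The genes nearest to each member in pattern were sought among 17352 other genes well above background on all 4 arrays, by the Euclidean distance between the 4 levels after each gene was centred on its mean. Sprr1a was nearest to Cxcl1 (distance 0.19), with levels of 7.72, 8.43, 8.97 and 10.75, followed by Slc6a12 (0.40) and Ier3 (0.56). Cxcl5 had no near neighbour, the closest being Cck (0.9999), Slco4a1 (1.05) and Il1rl1 (1.45). Csf2 lay nearest to Hdc (0.18), Cd80 (0.20) and Pmaip1 (0.21), and Hdc ran 5.39, 6.63, 5.88 and 6.98. The Csf2 levels in control and ADSC medium and the Csf3 level in control were not well above background, so the distances and order for these 2 genes rest in part on undetected values. Csf3 lay nearest to Spaca7 (0.30), Cysrt1 (0.33) and Crygf (0.35), of which Spaca7 ran from 2.83 to 3.90, near the background like Csf3 itself. Csf1 varied by less than 1 over the arrays, and Cxcl2 did not pass on any, so neither was searched. With 4 arrays these names are a description.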

How the data were processed

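RNA of 4 cultures was read on 1 array each (Agilent design 014868, mm9) and scanned into Feature Extraction 12.1.1.1, as the file headers state. Per the file headers, the deposited intensity is the processed signal with background and spatial trend removed array by array. The design text records a quantile normalization by the authors, and the submitters' processing notes name R 3.5.1. The authors also deposited lists of probe names, and no source used here gives their threshold. Here control spots and outlier-flagged spots (82 to 104 an array) were left out, log2 values averaged per probe and quantile-normalized with limma 3.58.1 in R 4.3.3. Other steps used Python 3.11.15, numpy 2.4.6 and pandas 2.3.3, and were tested on simulated data. A probe passed when over 50% of its remaining spots were flagged well above background. Gene names came from RefSeq for 28680 probes and from the array for 12466. A gene took its probe with the highest mean. Genes entered a comparison when they passed on 1 array or more and their bound was not below 1-fold. With 1 array a condition, batch and condition cannot be told apart.

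The members and lists were chosen with earlier results of these data known. Named were all members, all receptors, genes of the lists at least 2-fold different in a comparison (up to 6 a list), and the 3 nearest patterns. Others in the lists were named after their values were seen. Alternatives were scaling to the 75th percentile, normexp (offset 50), the mean of detected probes, outlier spots kept, no filter on dim probes and a 1.5-fold call. 3 were added after seeing the data: no scaling between arrays, own values in place of bounds for the members, and the leukocyte marker sum without Cd14.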

Additional observations from a re-analysis of the deposited data

Results flagged for a closer look

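The effect of PA on Cxcl5 pointed in opposite directions without and with ADSC medium, at -0.69 and 1.95, so that the effects differed by 2.64. That of PA on Csf3 did so too, at 0.54 and -1.19 at the spot's own values, as did that of ADSC medium on Csf3 without and with PA, at 1.40 and -0.34, both differing by -1.73. With 1 array a condition neither difference was tested. For Csf3 the value of -0.34 is within the SD of 0.49 for 2 single spots, and the control spot was not well above background.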

How the results depend on the processing

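Every member difference kept its direction under the alternatives that gave a value, and Cxcl1 and Cxcl5 stayed past 2-fold in the 4 comparisons where they were. No paired analysis was possible because each condition has 1 array, and for the same reason no replicate could be left out. Outlier spots kept and the mean of detected probes moved no member difference beyond the spot SD. With the 75th percentile scaling Csf1 in PA against control was at 0.79.

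With the normexp background Cxcl5 was at -0.43 in PA against control, 1.38 in ADSC medium against control, 3.64 in both against PA, 1.83 in both against ADSC medium and 3.21 in both against control, with a surplus of 2.26. Cxcl1 was at 1.02 with the medium alone and 2.998 with both against control. Csf2 was at 0.11 in both against ADSC medium and 0.14 in both against control, and Csf3 at 0.15 in ADSC medium against control and -0.19 in both against ADSC medium, so that 0 members in place of 1 were lower there. At its own values, Csf2 was at 1.40 in PA against control and 1.83 in both against control, and 1 member was higher with PA than in control. Csf2 was at 1.16 in both against ADSC medium, so 3 members in place of 2 were higher there and in both against control. A 1.5-fold call gave 1 member higher and 1 lower with PA, and 4 higher in both against ADSC medium, Csf2 among them as a bound.

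Without scaling between arrays the median of all genes was 0.29 in PA against control, -0.19 in both against PA, 0.11 in both against ADSC medium and 0.11 in both against control. The share of 2-fold calls that were higher was then 88.6% in place of 64.6%, 58.1% in place of 77.5%, 85.4% in place of 72.6% and 93.0% in place of 81.1%. Cxcl1 was at 0.91, Cxcl5 at -0.41 and Csf1 at 1.13 in PA against control. In both against PA, Cxcl1 was at 2.32, Cxcl5 at 4.27 and Csf1 at -0.53. In both against ADSC medium, Cxcl1 was at 2.12, Cxcl5 at 2.09 and Csf1 at 0.71. In both against control Cxcl1 was at 3.23 and Csf1 at 0.60. The surplus was 1.21 for Cxcl1 and -0.42 for Csf1.

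Counts over all genes moved more. In the order PA, ADSC medium, both against PA, both against ADSC medium and both against control, genes at least 2-fold higher were 199, 97, 328, 233 and 330, and lower 109, 22, 95, 88 and 77. They were 105, 19, 97, 105 and 147 higher and 11, 8, 4, 9 and 10 lower with normexp. Without the filter on dim probes they were 664, 623, 742, 659 and 900 higher and 552, 492, 479, 526 and 584 lower. At 1.5-fold they were 532, 420, 985, 653 and 855 higher and 596, 234, 698, 579 and 670 lower. With the 75th percentile scaling the lower count in both against PA was 60. Apart from the changed cut, filter or offset, the cause of these shifts was not tested. Signal over background limits Cxcl2, Csf2 and Csf3.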
